A study of Homo sapiens and Mus musculus with 12 samples.

Results

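The mouse Spdef peaks on chromosome 15 are the 354 regions, of 5719 in the mouse list, whose chromosome is given as 15 in the mm10 build. The series mapped SPDEF binding in human and mouse pancreatic ductal adenocarcinoma (PDA) cells by CUT&RUN, in which an antibody brings a nuclease to chromatin and the released fragments are sequenced. Its 3 peak lists hold 19164 regions in all. The mouse list belongs to FC1245, a 2D mouse PDA cell line of strain C57/Bl6 whose genotype includes Trp53LSLR172H/+ and Pdx1-Cre, so that Cre driven by the Pdx1 promoter switches on mutant Trp53 in the pancreas. The cells carried HA-tagged mouse Spdef, and 3 libraries used an antibody against the HA tag. One further library of the same HA-mSpdef cells used an IgG control antibody. The mouse list therefore describes the tagged protein in a single cell line. Values from the human SPDEF list are set beside it near the end. By their labels, those libraries came from HPAF-II cells with HA-tagged human SPDEF and used an HA antibody.

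Spdef is an ETS-family transcription factor. ETS factors bind short sites with a GGA core, and Spdef is known for its part in goblet and other mucus-secreting epithelial cells, where it acts on genes of secretion and glycosylation. In pancreatic cancer, secretory and differentiated epithelial genes mark the classical subtype.

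The list gives a start and an end for each peak and no height, score or p-value, and it has no values per library. No count below has an error from replicates, and how deeply the libraries were sequenced is not known. The peaks were chosen by their position, so their number and spacing are descriptions and were not tested. No mouse gene annotation or genome was used here. No peak was assigned to a gene, no base sequence is shown, and genes are named only as background to a band.

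Chromosome 15 held 3.40 peaks per Mb over its 104.0 Mb, which is 1.62 times the number its length gives (218.2 peaks expected, 95% exact Poisson interval of the ratio 1.46 to 1.80, counting error only). Only chromosomes 19 (2.19, 1.94 to 2.46) and 11 (1.73, 1.57 to 1.89) had a higher ratio. The interval of chromosome 15 overlaps that of chromosome 11 and also that of chromosome 8 (1.39, 1.25 to 1.53), the next below it. The genome length behind the expected numbers includes chromosome Y, with 0 peaks over 91.7 Mb. Mouse ratios to the genome rate, here and below, would be somewhat lower without it. The peaks of chromosome 15 covered 206.6 kb, or 0.199% of it. In share of length covered, chromosome 15 again ranked behind chromosomes 19 and 11.

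**Figure D1:**
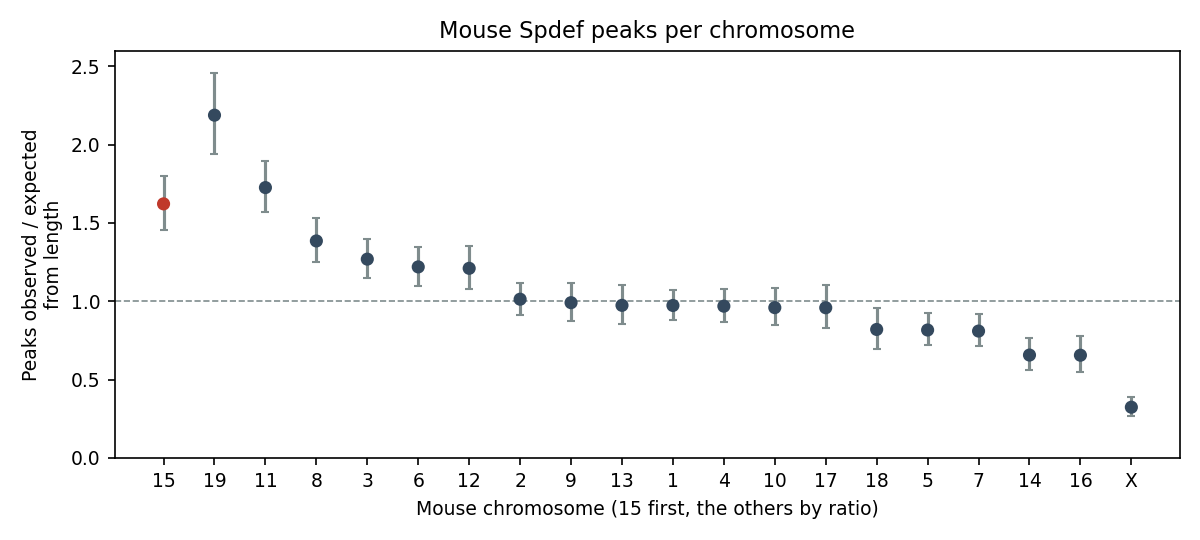
Number of mouse Spdef peaks on each chromosome divided by the number its length gives; points are chromosomes, bars are 95% exact Poisson intervals for counting error, and the dashed line marks a ratio of 1. Chromosome 15, in red, lies at 1.62, below chromosomes 19 and 11 and above the rest; chromosome Y, with 0 peaks, is not drawn.

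The peaks were unevenly spread along the chromosome. The 75 Mb on the centromere side held 159 peaks, a density close to that of the whole genome (ratio 1.01). The remaining stretch, 27.9% of the length, held 195 peaks, or 55.1% of them (ratio 3.20). The dividing point was placed after the counts were seen. The first peak began at position 3250474 and the last ended at position 103240683.

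All 17 cytogenetic bands of chromosome 15 held at least 1 peak. At least 2 times the peaks given by length lay in 6 of the 17 (35.3%), against 46 of 403 bands over the whole mouse list (11.4%). These were qD3, qE1, qE2, qF1, qF2 and qF3, the distal bands with the exception of qE3. The 403 bands include those of chromosome Y, which has 0 peaks. Against the mean rate of chromosome 15 itself, 4 bands stood at 2 times or more, and they were qE1, qE2, qF2 and qF3.

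Counted by single peaks, band qF2 was the densest of all 403 bands. It held 20 peaks in 0.917 Mb, or 21.8 peaks per Mb (1.92 expected, ratio 10.4, 95% exact Poisson interval 6.35 to 16.1). Bands qE1 and qE2 ranked 7 and 8 of the 403. In qE1 56 peaks lay in 6.42 Mb (ratio 4.16, 3.14 to 5.40). In qE2 27 peaks lay in 3.21 Mb (ratio 4.01, 2.64 to 5.84). Counted by single peaks, the interval of qF2 lies above those of qE1 and qE2, which overlap each other almost wholly. These intervals treat peaks as independent, and since peaks lay in clusters they are too narrow.

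The other dense bands followed at lower ratios. Band qF3, in which the Hoxc genes of body patterning lie, held 13 peaks (ratio 3.38, 1.80 to 5.78). Band qF1 held 31 peaks (2.69, 1.83 to 3.81) and qD3 40 peaks (2.19, 1.56 to 2.98). Band qD3 is the place of the Ly6 family of small surface proteins and of Plec, which links keratin filaments to cell junctions. Band qD1, which holds the growth regulator Myc, had 52 peaks over 12.8 Mb (1.93, 1.44 to 2.53). Band qB3.1, which holds the epithelial transcription factor Grhl2, had 41 (1.78, 1.28 to 2.41).

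Sparse bands lay mainly on the centromere side. The lowest ratio was that of qA2, with 2 peaks in 7.79 Mb (0.122, 0.0148 to 0.442). Band qB3.3 also held 2 peaks (0.189, 0.0229 to 0.683), and qD2 held 1 (0.208, 0.00527 to 1.16). Bands qA1 (26 peaks), qB2 (3), qC (6) and qE3 (18) had ratios of 0.751, 0.624, 0.780 and 0.985. Bands qB1 (12 peaks) and qB3.2 (4) both stood at 1.04. The intervals of these last 6 bands all include 1.

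**Figure D2:**
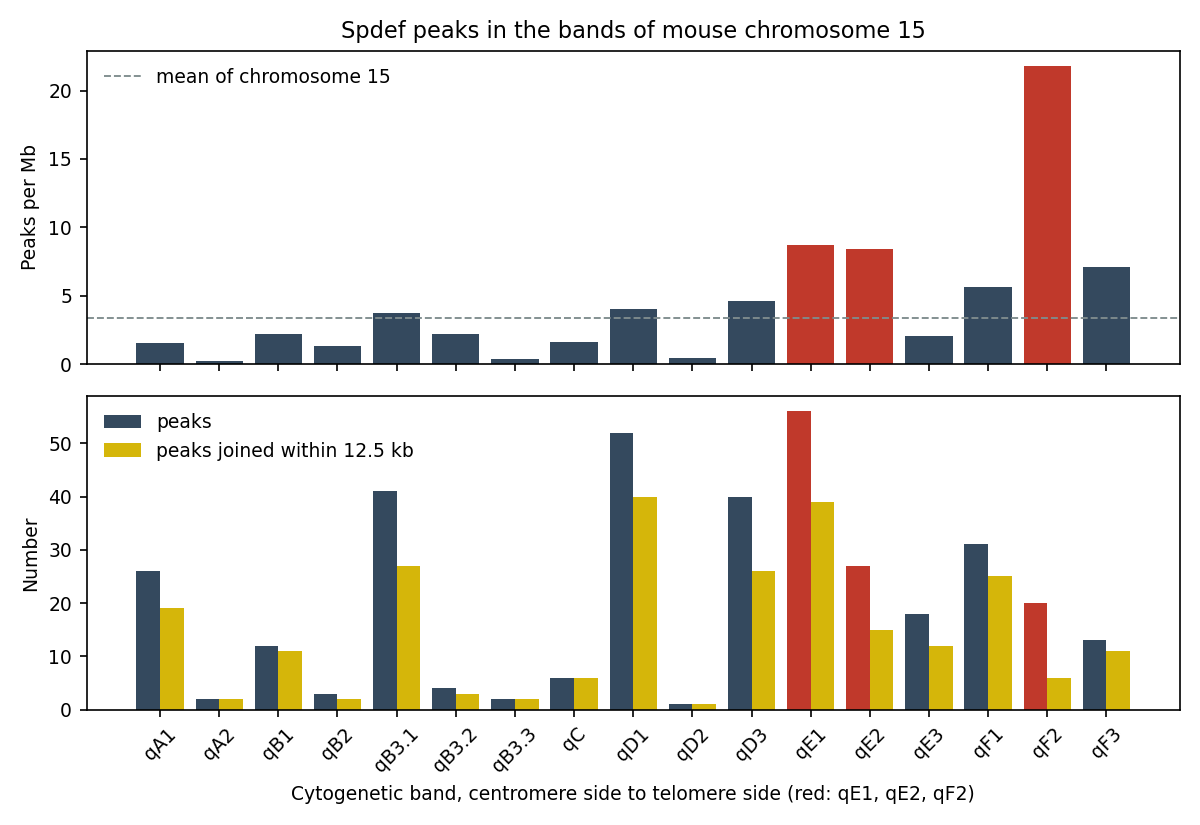
Spdef peaks in the 17 bands of mouse chromosome 15, from the centromere side to the telomere side. The upper bars give peaks per Mb with the chromosome mean of 3.40 dashed, and the lower bars give the number of peaks beside the number left when peaks within 12500 bp are joined; qF2 reaches 21.8 peaks per Mb, but its 20 peaks join to 6 places.

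The longest stretch without a peak on the chromosome ran for 10337 kb between the end of a peak at 13244866 and the start of the next at 23582220, across the end of qA1 and most of qA2. The next longest, 3395 kb, lay in qE3 after position 89941028. A stretch of 2531 kb without a peak separates qE2 from qE3. The dense part of the chromosome is thus broken by qE3 into a segment from qD3 to qE2 and a segment from qF1 to qF3.

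In fixed windows of 1 Mb, 13 of 105 windows of chromosome 15 held 10 or more peaks (12.4%), against 93 of 2737 windows over the whole mouse list (3.40%). These 13 windows held 167 of the 354 peaks (47.2%). At the other end, 39 windows of chromosome 15 were empty (37.1%), beside 1128 of 2632 windows on the other chromosomes (42.9%). Both the whole list and the other chromosomes here include chromosome Y, which has 0 peaks over 91.7 Mb and adds only empty windows. The last window of chromosome 15, a short end piece from 104 to 104.044 Mb, was counted as an empty window. Stretches without assembled sequence were not set aside, so empty windows may include them. The median was 2 peaks a window on chromosome 15 and 1 on the other chromosomes.

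**Figure D3:**
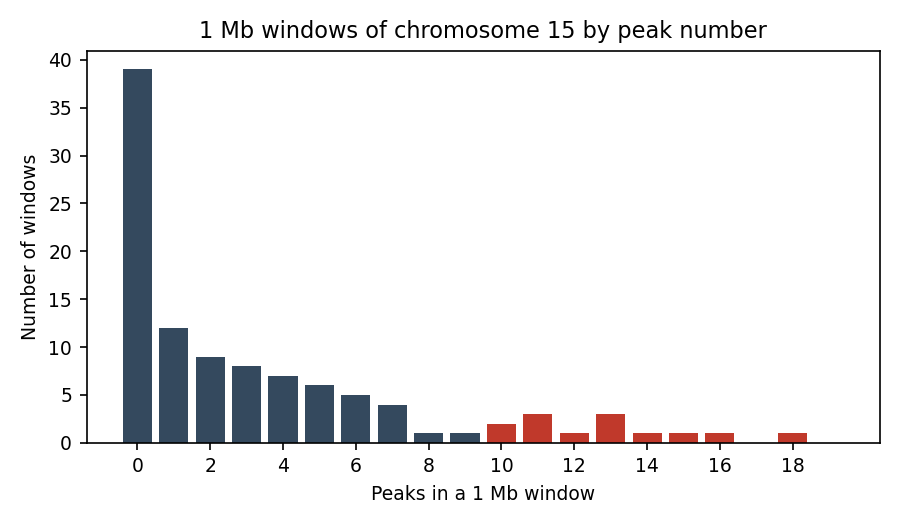
Number of 1 Mb windows of chromosome 15 by the number of Spdef peaks in them; windows with 10 or more peaks are in red. Of 105 windows, 39 were empty and 13 held 10 or more, with a highest value of 18.

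With edges at whole Mb, the window with most peaks was that from 102 to 103 Mb, across the border of qF2 and qF3, with 18. The first place depended on the edges and the size of the windows. With edges moved by 0.5 Mb, the window from 85.5 to 86.5 Mb in qE2 came first with 21 peaks, and with 2 Mb windows that from 78 to 80 Mb in qE1 with 30. At whole Mb, the window from 102 Mb ranked 7 of all 2737, where the highest held 35. The window from 78 to 79 Mb in qE1 held 16 and that from 76 to 77 Mb in qD3 held 15. The window from 79 to 80 Mb in qE1 followed with 14. At 13 peaks each stood the windows from 36 to 37 Mb (qB3.1), from 75 to 76 Mb (qD3) and from 85 to 86 Mb (qE2). Of the 13 dense windows, 4 lay proximal to 75 Mb, at 10, 36, 41 and 61 Mb, in qA1, qB3.1 and qD1.

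The peaks also lay close together. On chromosome 15 the median distance from the end of a peak to the start of the next was 48.7 kb (quartiles 8.27 and 195.3 kb), against 107.2 kb on the other chromosomes (17.6 and 404.4 kb). The median of chromosome 15 was the shortest of the 20 chromosomes with peaks, whose other medians ran from 55.2 to 244.1 kb. Distances of 12500 bp or less made up 30.3% of those on chromosome 15 (107 of 353), beside 21.9% on the other chromosomes (1172 of 5344). In this share chromosome 15 stood second to chromosome 6, at 30.6%. Distances under 1 kb made up 11.3% on chromosome 15 and 8.87% on the other chromosomes.

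When peaks within 12500 bp were joined, the 354 peaks of chromosome 15 formed 247 places, of which 182 were single peaks, 45 pairs and 10 triplets. The other 10 were clusters of 4 to 7 peaks. They held 52 peaks, or 14.7% of those on chromosome 15. With peaks joined only within 5 kb, 5 clusters of 4 or more were left. On the other chromosomes 70 clusters of 4 or more held 6.38% of the peaks, and no other chromosome had more than 9 such clusters or over 12.8% of its peaks in them. Counted as joined places, chromosome 15 still held 1.46 times the number its length gives.

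Of the 10 clusters, 9 lay distal to 75 Mb. Clusters of 7 peaks lay in qF2 (101316131 to 101337483) and in qD3 (76190018 to 76207444). Clusters of 6 lay in qF2 (101995267 to 102028993), qE1 (78828071 to 78845875) and qB3.1 (36843212 to 36884608). The 5 clusters of 4 peaks lay in qD3 (75910260 to 75929388), qE1 (79322602 to 79328951), qE2 (85634595 to 85655354 and 86057110 to 86068183) and qE3 (88854381 to 88868098).

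The clusters differed in how tightly they were packed. Spans ran from 6.35 kb for the cluster of 4 in qE1 to 41.4 kb for that of 6 in qB3.1. Peaks covered 37.6% of the qE1 cluster and 6.97% of the qB3.1 cluster. In the qD3 cluster of 7, peaks covered 27.1% of 17.4 kb, and its last 4 peaks were separated by 304, 587 and 804 bp.

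**Figure D4:**
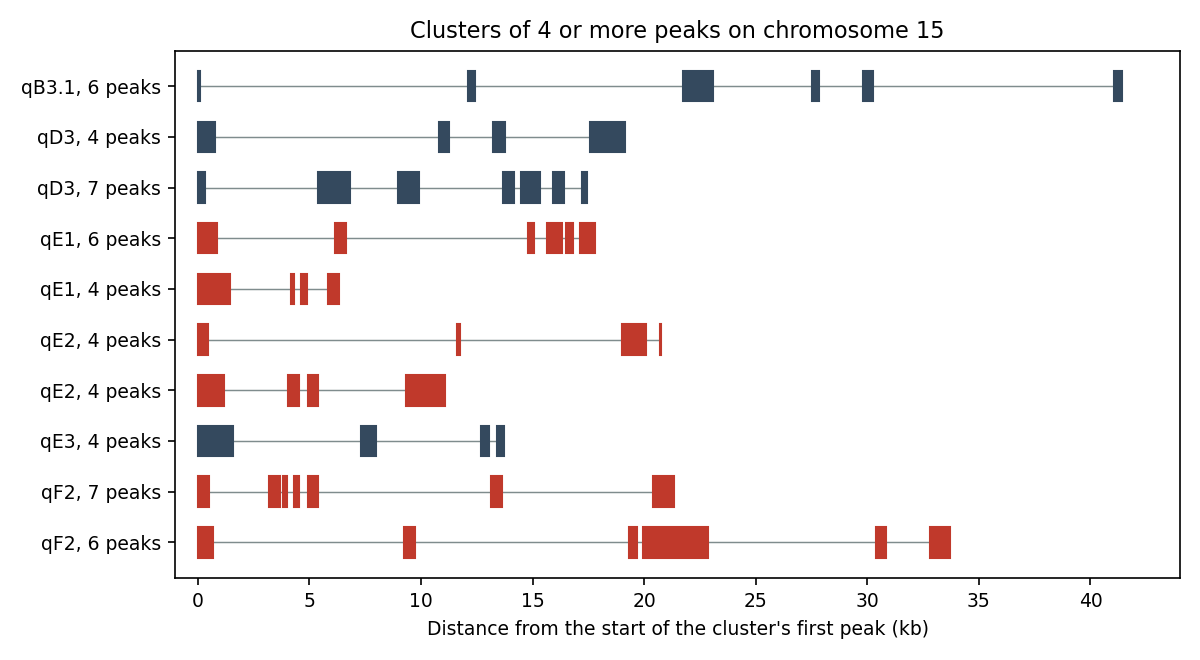
The 10 clusters of 4 or more Spdef peaks on chromosome 15, each drawn to scale from the start of its first peak; boxes are peaks, thin lines the stretches between them, and red marks qE1, qE2 and qF2. The qB3.1 cluster is the longest, at 41.4 kb, and the wide box in the lower qF2 row is the peak of 2931 bp.

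Band qF2 lies where the mouse type II keratin genes are found, together with Krt18, the type I keratin outside the type I cluster. Keratins form filaments from type I and type II pairs. The pair of Krt8 and Krt18 is the main one of simple epithelia such as the pancreatic duct, while Krt5 belongs to basal layers of stratified epithelia. The 20 peaks of this band fell into 2 groups, with 639.6 kb free of peaks between them. Which of the 20 lie at keratin genes was not determined.

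The proximal group of qF2 held 7 peaks within 21.4 kb, all in the cluster described above. It began with a peak of 501 bp at 101316131 to 101316631. After 2700 bp came 4 peaks in a row, of 469, 152, 224 and 438 bp, from 101319332 to 101321523. These 4 were only 162, 319 and 428 bp apart. A peak of 475 bp at 101329273 to 101329747 and one of 954 bp at 101336530 to 101337483 ended the group, and the last was its widest.

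The distal group held 13 peaks within 190.9 kb. It opened with a pair of 350 and 167 bp at 101977052 to 101977861. The cluster of 6 followed, with peaks of 687 bp (101995267 to 101995953), 474 bp (102004521 to 102004994), 378 bp (102014578 to 102014955), 2931 bp (102015216 to 102018146), 432 bp (102025674 to 102026105) and 924 bp (102028070 to 102028993). The peak of 2931 bp was the widest on chromosome 15 and ranked 10 by width in the whole mouse list. Beyond the cluster, 5 more peaks of 726, 970, 578, 811 and 401 bp lay between 102073702 and 102167985.

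The median width was 469 bp in the proximal group and 578 bp in the distal one. From first to last peak, stretches between peaks included, the proximal group spanned 2.33% of the length of qF2 and the distal group 20.8%. Joined within 12500 bp, they made 6 places, against 1.49 expected from length (ratio 4.02). The ratio of 10.4 thus includes the crowding of peaks at few places. In joined places qF2 was still the highest band of chromosome 15, but close to qE1 (3.73) and qF3 (3.68). Its value there rests on 6 places and no interval was computed, so qF2 was not set apart from these bands in that count. The rank of qF2 among all 403 bands was not computed in joined places.

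**Figure D5:**
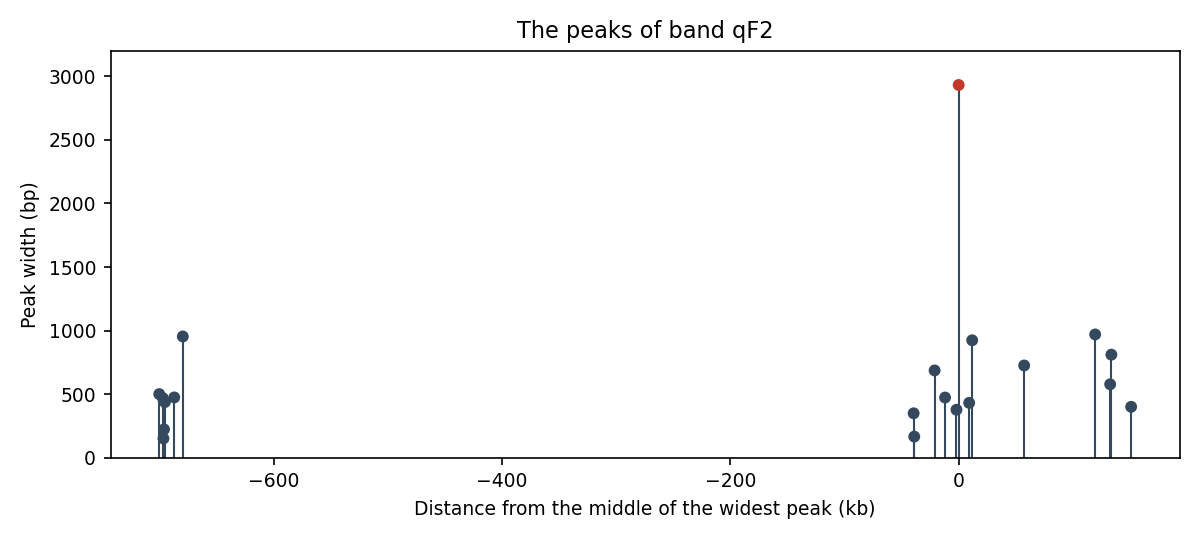
Width of each of the 20 Spdef peaks of qF2 against the distance of its middle from the middle of the widest peak, in kb; each stem is 1 peak and the widest is in red. A group of 7 peaks and a group of 13 are separated by 639.6 kb without a peak.

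The human keratin genes on chromosome 12 form an unbroken run of 27 protein-coding genes in the RefSeq table of GRCh38.p14, which was used for names and order only. KRT80 and KRT7 stand at one end of the run and KRT8 and KRT18 at the other, with the hair, basal and epidermal keratins between them. The mouse cluster was not mapped here, so whether the stretch without peaks in qF2 spans the inner genes of the cluster was not tested. The human SPDEF list belongs to HPAF-II cells that carried HA-tagged human SPDEF. In that list, the human keratin band 12q13.13 held 34 peaks, or 11.2 times the number its length gives. That ratio counts peaks without joining and has no interval. The human band was not matched to qF2 in length or gene content, so the ratios of the bands cannot be set directly against each other.

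Band qE1 is the place of Sox10 and Maff, which are transcription factors, of Atf4, a factor of the amino acid and unfolded protein responses, and of Pdgfb, a growth factor. Its 56 peaks formed 39 places when joined, and its ratio was then 3.73, so most of its density came from many separate places. From 78 to 81 Mb lay 42 of the 56, at 14.0 peaks per Mb. No peak lay in the 1784 kb after position 81664399, and 4 peaks closed the band from 83448432 to 83564154.

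The widest peak of qE1, of 2206 bp, stood alone at 79107492 to 79109697, with 78.8 kb to the peak before it and 212.9 kb to the next. It ranked 3 by width on chromosome 15. Peaks of 1750 bp (81521948 to 81523697) and 1683 bp (79950857 to 79952539) were also among the 10 widest and also lay outside clusters of 4 or more. In the cluster of 6, the last 4 peaks, of 265, 701, 318 and 689 bp, were 552, 178 and 287 bp apart. The cluster of 4 began with a peak of 1440 bp, at 79322602 to 79324041, and ended with peaks of 146, 296 and 508 bp.

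Band qE2 holds Wnt7b, which encodes a secreted Wnt ligand, and Ppara, which encodes a nuclear receptor of fatty acid metabolism. Its 27 peaks were concentrated toward the telomere side of the band, with 23 of them between 85 and 87 Mb. After the peak ending at 84280797 the next were 1 at 84714633 and then 1 at 85336333, with 433.8 and 621.1 kb between them. The median distance between neighbours in qE2 was 15.1 kb, shorter than the 39.4 kb of qE1 and longer than the 7.53 kb of qF2.

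The cluster at 86057110 to 86068183 held peaks of 1175, 487, 428 and 1728 bp, and a triplet of 281, 442 and 533 bp followed 18.0 kb later. The widest peak of the band, of 2668 bp at 86200236 to 86202903, was its last peak and ranked 2 by width on the chromosome. The cluster at 85634595 to 85655354 held peaks of 450, 128, 1098 and 31 bp. Joined within 12500 bp, the 27 peaks made 15 places, and the ratio was 2.87.

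Just outside the 3 bands, the end of qD3 was as dense as the core of qE1. From 75 to 77 Mb lay 28 peaks, at 14.0 per Mb, among them both qD3 clusters. A peak of 1558 bp at 75927831 to 75929388 ended the first cluster, and a peak of 1427 bp at 76195406 to 76196832 was the widest of the second. The stretch from 75 to 87 Mb, through qE1 and qE2, held 113 peaks, or 31.9% of those on the chromosome in 11.5% of its length.

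Peaks of chromosome 15 had a median width of 479.5 bp (quartiles 304 and 739 bp), against 433 bp on the other chromosomes (291 and 726 bp). The medians of the other 19 chromosomes with peaks ran from 365 to 486.5 bp, so that of chromosome 15 lay inside their range, below those of chromosomes 3 and 12. Among the wider 50% of the list the order turned round, with 699 bp on chromosome 15 and 729 bp on the other chromosomes. Peaks over 1000 bp made up 13.0% on chromosome 15 and 11.9% on the other chromosomes, and peaks under 100 bp made up 3.95% on chromosome 15 and 3.21% on the other chromosomes.

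Median widths were 474.5 bp in qF2, 486 bp in qE1 and 428 bp in qE2. Those of the other 14 bands ran from 262.5 bp in qC, with 6 peaks, to 862 bp in qB3.2, with 4, so the 3 dense bands lay inside that range. The 10 widest peaks of the chromosome included 3 from qE1, 2 from qE2 and 1 from qF2. The other 4 lay in qB1 (27782603 to 27784799, 2197 bp), qD1 (58382248 to 58384092, 1845 bp), qE3 (88854381 to 88855947, 1567 bp) and qD3 (75927831 to 75929388, 1558 bp). The qB1 peak ranked 4 by width.

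Mouse chromosome 15 is known to share gene content with parts of human chromosomes 5, 8, 22 and 12, in that order from the centromere. The 4 parts were set side by side by whole bands, with approximate borders, no conversion of coordinates and no test. Peaks near a border, such as those at the start of qE3, may therefore be counted in the wrong part. Bands qA1 to qB2 held 1.34 Spdef peaks per Mb (ratio 0.639), and the short arm of human chromosome 5 held 0.351 SPDEF peaks per Mb (0.392). Bands qB3.1 to qD3 held 3.22 per Mb (1.53), and human 8q22 to 8q24 held 1.41 (1.58).

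Bands qE1 and qE2 held 8.62 peaks per Mb (ratio 4.11), while human 22q12.3 to 22q13 held 11 peaks, or 0.576 per Mb (0.643). Bands qE3 to qF3 held 4.84 per Mb (2.31), and human 12q12 to 12q13.13 held 67 peaks, or 4.01 per Mb (4.48). Of the 4 parts, only that of qE1 and qE2 had a ratio above 1 in the mouse list and below 1 in the human list. The human bands there spanned 19.1 Mb against 9.63 Mb of mouse bands, so they may hold sequence with no counterpart in qE1 and qE2. No interval was computed for the 11 human peaks. The lists come from different species and cell lines and differ in length, and why they differ there was not tested.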

How the data were processed

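The submitters' processing notes list MACS2 2.2.7.1, deepTools, SAMtools 1.14 and Bowtie2 2.4.4, and the builds mm10 and hg19, with no settings. The sources used here do not give the peak threshold, its control or any pooling of the 3 HA libraries. Per target, the authors deposited 1 list of peaks, with chromosome, start and end. Peaks of the IgG library were not analysed here, and part of the genotype is not reported here. Positions are printed counting from 1.

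Peaks were counted by midpoint in mm10 bands (circlize 0.4.16, R 4.3.3) and in 1 Mb windows. Expected numbers came from the 5717 peaks on chromosomes 1 to 19, X and Y and their lengths (GenomeInfoDb 1.38.1). Intervals are exact 95% Poisson intervals, which treat peaks as independent. Peaks whose edges lay within 12500 bp were joined. Python 3.11.15, scipy 1.17.1 and matplotlib 3.10.9 were used, and the counting was checked on simulated data. No test was run, since the region was chosen by the same positions. The bands, lists and thresholds were chosen with earlier results of these data known. Named were the 10 widest peaks, all qF2 peaks, the densest windows and all clusters of 4 or more peaks; other peaks, segments and windows were chosen after their values were seen.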

Additional observations from a re-analysis of the deposited data

How the results depend on the processing

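No paired analysis was possible because the deposited mouse peaks carry no replicate label, and for the same reason no library could be left out. The ratio of chromosome 15 ranged from 1.46 (peaks within 12500 bp joined) to 1.79 (wider 50% of peaks). Against the rate of chromosome 15, qE1 stood at 2.56 and qE2 at 2.47. Joining within 12500 bp brought qF2 to 4.02 by counting its clusters once, and joining within 1 kb to 8.0. Over its other alternatives qF2 ranged from 6.41 to 13.5. The highest window count was 30 with 2 Mb windows (qE1), which hold more by construction, 21 with windows moved by 0.5 Mb (qE2) and 15 with 0.5 Mb windows, from 102 to 102.5 Mb. Windows with 12 or more peaks numbered 8. Clusters of 4 or more numbered 5 within 5 kb and 14 within 25 kb. The median width of chromosome 15 minus that of the other chromosomes, 46.5 bp, was -30.0 bp among the wider 50%; the cause was not tested. For the 14 other bands, 63 of 70 alternatives stayed within the counting interval. Joining at the chromosome level and within 1 kb, the spacing filters and other thresholds were added after seeing the data. Expected numbers by gene count, positions relative to genes, loci of single genes and ETS words were not run, since no mm10 annotation or genome was used here. Depth is unknown and limits what the list can hold.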
